A study of Saccharomyces cerevisiae with 12 samples.

Results

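The nuclear genes of the yeast respiratory chain and ATP synthase were followed in Saccharomyces cerevisiae strains labelled as high or low in SAM (S-adenosylmethionine), which gives methyl groups to many reactions. The 37 genes were taken by systematic name: 3 NADH dehydrogenases, 4 subunits of complex II, 8 of complex III, both cytochrome c genes, 9 subunits of complex IV and 11 of ATP synthase. All 37 were found among the 6845 features of the bikaverin table and the 6818 of the pRS416 table, of which 6751 were in both. All 37 also passed the filter of a mean of at least 1 FPKM (a gene's fragments for each kilobase of its length and each M of reads in the total used for its library) in each table.

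RNA was sequenced from 12 libraries, 3 for each of 4 strains, all taken at 36 h. YJ-06 (high SAM) and YJ-04 (low SAM) both hold an added module of genes for making bikaverin, a fungal pigment. YJ-09 (high SAM) and YJ-08 (low SAM) both hold pRS416, a plasmid, and no bikaverin module is named in their labels. Not given in the sources used here are how SAM was raised, the parent strain, the medium, the ploidy and whether a strain is 1 clone. The labels do not say that the 3 libraries of a strain came from separate cultures, so a p-value covers only the spread between libraries, which may be technical.

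In budding yeast, electrons enter the chain from NADH through single-chain dehydrogenases, since this species has no proton-pumping complex I, and from succinate through complex II. Ubiquinone carries them to complex III, cytochrome c to complex IV, and complex IV to oxygen, while the proton gradient made by complexes III and IV drives ATP synthase. Most of the subunits are encoded in the nucleus and are known to be repressed on glucose and raised during growth on non-fermentable carbon, through the activator of the Hap proteins, and several have a second isoform that is used when oxygen or haem is scarce.

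Scaling totals recovered from the values were 15.4 to 17.7 M reads for the bikaverin libraries and 40.7 to 45.1 M for the pRS416 libraries. Reads in genes matched to the reference exceeded this total in replicate 3 of YJ-04 (17.8 against 17.7 M). They also did so in replicates 2 (41.7 against 40.7 M) and 3 (45.1 against 43.1 M) of YJ-09, and the reason was not tested. The fewest reads behind a value of these genes were 199 (CYC7, bikaverin table) and 379 (CYC1, pRS416 table). Replicate 1 of YJ-06 stood further from its replicates (chi-square of 91.8 and 121 per gene) than these did from each other (14.2), and results that turn on it are given with and without it. Replicate 3 of YJ-04 also stood further from its replicates (48.7 and 51.0 per gene) than these did from each other (11.2). Replicates 1, 2 and 3 differed by 10.1 to 20.8 per gene in YJ-08 and by 56.6 to 122 in YJ-09. The bikaverin genes BIK1, BIK23, BIK3 and BIK6 and 2 further features of the module reached at most 1.26 FPKM in a pRS416 library. Levels are not tested across the tables, which were normalized separately.

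The respiratory genes moved in opposite directions in the pairs of strains. In the bikaverin pair, 31 of the 37 genes fell in YJ-06 relative to YJ-04, 3 rose (CYC1, CYC7 and COX5B) and 3 were not called (ATP1, ATP2 and ATP20). In the pRS416 pair, 36 rose in YJ-09 relative to YJ-08, and NDE2 fell. A gene was called at an adjusted p below 0.05 over all features tested. Calls were common in both pairs: 27.9% of all 6459 features tested were called lower and 28.8% higher in the bikaverin pair (56.7% in all), and 39.1% were called higher and 38.4% lower of the 6342 tested in the pRS416 pair (77.5% in all). The median log2 fold change of the 37 genes was -0.70 in the bikaverin pair and 1.58 in the pRS416 pair, beside 0.01 and -0.01 over all features tested. Log2 fold changes here are high minus low SAM on the log2(FPKM + 1) scale. RNA was taken in bulk and FPKM is scaled to a total for each library, so fewer cells that express a gene and less of its RNA per cell cannot be told apart.

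Larger changes were also counted. Called changes of 1 or more on the log2 scale were downward for 9 of the genes and upward for 2 in the bikaverin pair, where 8.44% and 7.45% of all features reached it. In the pRS416 pair, 34 genes reached it upward and 1 downward, against 13.9% and 12.7% of all features. The libraries of YJ-06 lay wholly below those of YJ-04 for 33 of the genes and wholly above them for 3, while 32.2% and 33.4% of all features did so. The libraries of YJ-09 lay wholly above those of YJ-08 for 36 genes and wholly below for 1, while 40.4% and 39.9% of all features did so.

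Whether the change differed between the pairs was tested in 1 fit of all 12 libraries. The change in the bikaverin pair minus that in the pRS416 pair was below 0 and called for 36 genes and above 0 for NDE2, against 29.3% and 27.9% of the 6264 features tested (57.3% in all). It was at most -1 for the same 36 genes, against 10.8% of all features, and 8.88% of all features reached 1 or more. The median of the difference was -2.23 over the 37 genes and 0.00 over all features. Both directions of call combined as 30 genes lower in the bikaverin pair and higher in the pRS416 pair, 3 higher in both, 1 lower in both, and 3 not called in the bikaverin pair and higher in the pRS416 pair. How many of all features combined in these ways was not counted.

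Markers of cell type also differed between the strains of both pairs. All 6 genes expressed in haploid cells fell in YJ-09, where their summed level was 85.5 to 94.3 FPKM, against 762 to 806 FPKM in YJ-08. STE4, the beta subunit of the pheromone G protein, averaged 9.19 ± 0.774 FPKM in YJ-09 and 202 ± 6.42 FPKM in YJ-08 (adjusted p = 2.3e-10). All 4 genes of alpha cells fell as well, with sums of 63.6 to 74.6 FPKM in YJ-09, against 966 to 1042 FPKM in YJ-08. Of 7 genes of a cells, 2 rose and 4 fell, with sums of 108 to 123 FPKM in YJ-09, against 144 to 150.2 FPKM in YJ-08. In the bikaverin pair, 3 haploid genes rose and 1 fell, with sums of 544 to 629 FPKM in YJ-06, against 543 to 575 FPKM in YJ-04. There all 4 genes of alpha cells rose, with sums of 1136 to 2069 FPKM in YJ-06, against 491 to 611 FPKM in YJ-04, and 1 gene of a cells fell, with sums of 81.3 to 94.8 FPKM in YJ-06, against 95.6 to 102.0 FPKM in YJ-04. Beside these counts, 39.1% of all features tested were called higher and 38.4% lower in the pRS416 pair. In the bikaverin pair 28.8% were called higher and 27.9% lower. No marker had a mean of 0 in any group. In the pRS416 pair, marker levels and the SAM label differ between the same strains, so cell type and SAM cannot be told apart. The part of cell type in the changes of the respiratory genes was not tested.

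**Figure D1:**
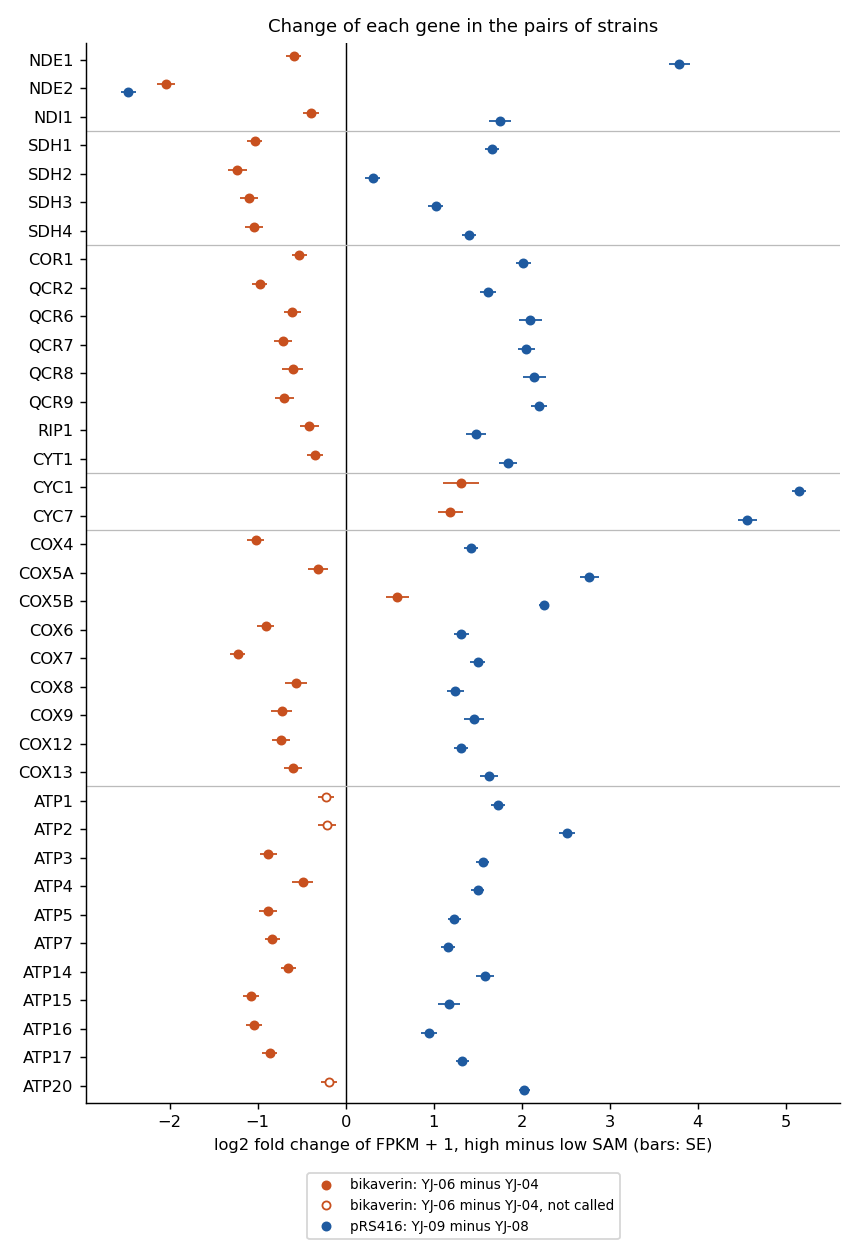
Log2 fold change of FPKM + 1 (high minus low SAM) of each of the 37 genes on the x axis, with its standard error, for the bikaverin pair (orange, open where not called) and the pRS416 pair (blue); grey lines divide the complexes. Most orange points lie left of 0 and all blue points but that of NDE2 right of it.

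The summed FPKM of the 37 genes showed the same split. The sum was 19726 ± 1099.6 FPKM in YJ-06 and 31568 ± 2161 FPKM in YJ-04 (SD, n = 3 each), which was 2.16% and 3.23% of all FPKM in the libraries. In the pRS416 strains it was 60313 ± 5153 FPKM in YJ-09 and 18076 ± 228 FPKM in YJ-08, or 6.13% and 1.76%. The sum was thus 1.60-fold lower in YJ-06 and 3.34-fold higher in YJ-09 than in the low-SAM strain of its pair.

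The complexes did not keep their proportions. Complex II fell most of the complexes in the bikaverin pair, 2.18-fold by its sum, and rose least in the pRS416 pair, 1.91-fold, so that its share of the summed FPKM was 7.53% in YJ-06 and 10.3% in YJ-04, and 6.73% in YJ-09 and 11.7% in YJ-08. Complex III took 25.3% in YJ-06 and 24.2% in YJ-04, and 32.1% in YJ-09 and 26.1% in YJ-08, where its sum was 4.11-fold higher in YJ-09. ATP synthase, with the largest share in the bikaverin strains, took 33.1% in YJ-06 and 32.9% in YJ-04, against 22.8% in YJ-09 and 26.4% in YJ-08. The cytochrome c genes took 2.72% in YJ-06 and 0.690% in YJ-04, and 5.29% in YJ-09 and 0.650% in YJ-08, the smallest share of the classes in YJ-06, YJ-04 and YJ-08 and close to the 5.32% of the NADH dehydrogenases in YJ-09.

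Ratios within a library do not depend on how a table was scaled. The summed FPKM of complex III over that of ATP synthase averaged 0.767 in YJ-06 and 0.737 in YJ-04, and 1.41 in YJ-09 and 0.988 in YJ-08. Complex IV over ATP synthase averaged 0.822 in YJ-06 and 0.843 in YJ-04, and 1.22 in YJ-09 and 1.15 in YJ-08. The means of the bikaverin strains were thus close to each other in these ratios. Their libraries overlapped in both ratios, but without replicate 1 of YJ-06 they overlapped in neither. The share of complex III was higher in YJ-09 than in YJ-08, while the libraries of these strains overlapped in complex IV over ATP synthase.

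**Figure D2:**
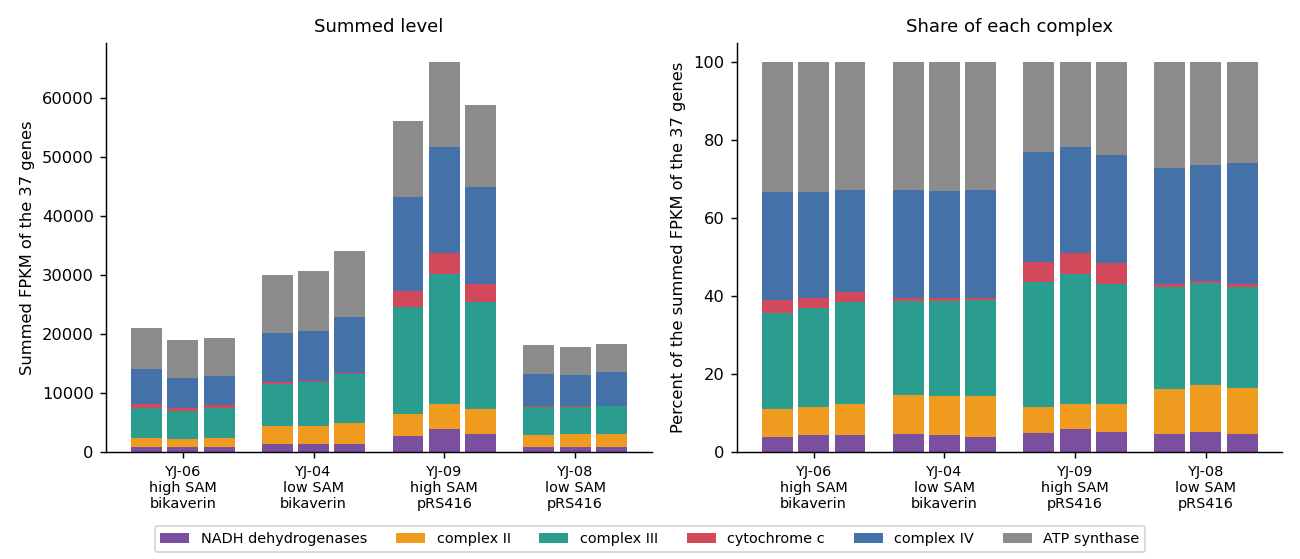
Summed FPKM of the 37 genes in each library (left) and the percent of that sum in each complex (right), stacked by complex, 1 bar per library in the order YJ-06, YJ-04, YJ-09, YJ-08. The band of the cytochrome c genes is wider in the high-SAM strain of both pairs, and that of complex II narrower.

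The upstream sequence of the genes was read from the R64 genome, in the 300 bases from 400 bases before the start codon. The letters CCAAT, the core bound by the Hap2/3/4/5 activator, occurred on either strand in 32 of the 37 windows (86.5%), against 2637 of 6007 windows of all protein-coding genes (43.9%). The 5 windows without it were those of NDE2, CYT1, CYC1, CYC7 and COX4. All 11 windows of ATP synthase and all 4 of complex II held CCAAT, as did 7 of 8 of complex III and 8 of 9 of complex IV. The Hap1 motif (CGG, any 3 bases, TA, any base, CGG) occurred only in the window of QCR6 (2.70%, against 0.216% of all windows), and ATTGTT, the core of Rox1 sites, in 10 of 37 (27.0%, against 31.9%). On the other strand CCAAT reads ATTGG, which starts as ATTGTT does, so no stretch is both, but matches may overlap at their ends. A match is a description of the letters and not evidence of binding. Only exact matches to these patterns were searched, so a window without one may hold sites that vary from them. Such a window also says nothing of the rest of the promoter. The windows of the isoform pairs are printed with the genes below, so that genes of the same function can be set side by side, with motif matches in capitals.

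The NADH dehydrogenases NDE1 and NDE2, which oxidise cytosolic NADH on the outer face of the inner membrane, separated most. NDE1 (YMR145C) had 391, 420.4 and 410.0 FPKM in the replicates of YJ-06, against 631, 638 and 571 FPKM in YJ-04. It had 1985, 2789 and 2162 FPKM in YJ-09, against 162, 165 and 166 FPKM in YJ-08. The groups did not overlap in either pair: NDE1 fell 1.51-fold in YJ-06 (log2 fold change -0.59 ± 0.085, SE, adjusted p = 0.00082) and rose 14.1-fold in YJ-09 (3.79 ± 0.12, adjusted p = 7.8e-09). NDE2 (YDL085W) had 73.9, 59.9 and 71.2 FPKM in YJ-06, against 307, 264 and 281 FPKM in YJ-04. In the pRS416 strains it had 75.1, 81.7 and 96.2 FPKM in YJ-09, against 467, 476 and 465 FPKM in YJ-08. NDE2 fell in both pairs, 4.15-fold in YJ-06 (-2.04 ± 0.11, adjusted p = 6.3e-06) and 5.56-fold in YJ-09 (-2.47 ± 0.09, adjusted p = 1.9e-08), with no overlap. The difference of its changes, 0.43 ± 0.15 (adjusted p = 0.024), was not called without replicate 2 of YJ-04 (adjusted p = 0.058) or without replicate 1 of YJ-09 (adjusted p = 0.061).

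NDI1 (YML120C), the dehydrogenase that faces the matrix, had 349.6, 328 and 358 FPKM in YJ-06, against 443, 425 and 499 FPKM in YJ-04. It had 693, 998 and 805 FPKM in YJ-09, against 237, 256 and 238 FPKM in YJ-08. It fell by 0.40 on the log2 scale in YJ-06 (adjusted p = 0.0076) and rose in YJ-09 (1.75 ± 0.12, adjusted p = 1.2e-06), the smallest change of the 3 dehydrogenases in each pair. The ratio of NDI1 to the sum of NDE1 and NDE2 averaged 0.726 in YJ-06 and 0.51 in YJ-04, and 0.347 in YJ-09 and 0.384 in YJ-08.

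The ratio of NDE1 to NDE2 was 5.29, 7.02 and 5.75 in the replicates of YJ-06, against 2.06, 2.41 and 2.03 in YJ-04. It was 26.4, 34.2 and 22.5 in YJ-09, against 0.347, 0.348 and 0.357 in YJ-08. NDE1 was therefore the more abundant of these RNAs in YJ-06, YJ-04 and YJ-09, and NDE2 in YJ-08. Their coding sequences are alike at 64% of aligned bases. NDE1 lies on the minus strand of chromosome XIII at 554793 to 556475 and NDE2 on the plus strand of chromosome IV at 303211 to 304848. The window of NDE1 (chrXIII:556576-556875, minus strand) holds CCAAT 261 bases and ATTGTT 193 bases before the start codon, and that of NDE2 (chrIV:302811-303110, plus strand) holds none of the motifs.
NDE1: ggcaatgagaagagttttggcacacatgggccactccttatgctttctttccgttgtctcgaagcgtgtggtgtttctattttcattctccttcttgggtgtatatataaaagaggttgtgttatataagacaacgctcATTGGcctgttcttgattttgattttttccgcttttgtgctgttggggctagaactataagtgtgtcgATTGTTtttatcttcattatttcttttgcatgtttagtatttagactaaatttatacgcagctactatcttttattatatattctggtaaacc
NDE2: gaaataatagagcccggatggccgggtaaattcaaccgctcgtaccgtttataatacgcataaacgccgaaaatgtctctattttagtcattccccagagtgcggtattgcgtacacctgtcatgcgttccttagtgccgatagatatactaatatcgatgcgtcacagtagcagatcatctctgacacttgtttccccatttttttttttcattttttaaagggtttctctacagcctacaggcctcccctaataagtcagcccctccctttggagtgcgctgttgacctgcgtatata

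Complex II oxidises succinate to fumarate and joins the chain to the citric acid cycle. All 4 of its genes fell in YJ-06 and all 4 rose in YJ-09, with medians of -1.07 and 1.21. SDH2 (YLL041C), the iron-sulfur subunit, had 495, 497 and 532 FPKM in YJ-06, against 1115, 1109 and 1378 FPKM in YJ-04. It had 1243, 1439 and 1267 FPKM in YJ-09, against 1024, 1092 and 1069 FPKM in YJ-08. The fall in YJ-06 (-1.23 ± 0.11, adjusted p = 8.3e-05) was the largest of the complex, and the rise in YJ-09 (0.31 ± 0.086, adjusted p = 0.0091) the smallest of the 36 genes that rose. Under quantile normalization that rise was 0.048 with an adjusted p of 0.57 and was not called. SDH1 (YKL148C), the flavoprotein that binds succinate, had 289, 263 and 285 FPKM in YJ-06, against 530.1, 584 and 608 FPKM in YJ-04. It had 879.6, 1017 and 1000.04 FPKM in YJ-09, against 309.9, 309 and 292 FPKM in YJ-08. SDH1 changed by -1.04 ± 0.089 (adjusted p = 7.5e-05) and 1.66 ± 0.079 (adjusted p = 1.1e-07) with no overlap in either pair.

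The ratio of SDH2 to SDH1 was 1.71, 1.89 and 1.86 in YJ-06, against 2.10, 1.90 and 2.27 in YJ-04. It was 1.41, 1.42 and 1.27 in YJ-09, against 3.30, 3.54 and 3.66 in YJ-08, with no overlap. In the pRS416 pair, SDH1 thus changed by more than SDH2, and the ratio was nearer to 1 in YJ-09. The membrane anchors SDH3 and SDH4 lay between: SDH3 averaged 359 ± 32.2 FPKM in YJ-06 and 771 ± 62.2 FPKM in YJ-04, and 798 ± 78.6 FPKM in YJ-09 and 391 ± 5.77 FPKM in YJ-08. SDH4 averaged 338 ± 28.8 FPKM in YJ-06 and 695 ± 57.3 FPKM in YJ-04, and 972 ± 64.4 FPKM in YJ-09 and 367 ± 15.96 FPKM in YJ-08.

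Complex III passes electrons from ubiquinol to cytochrome c. All 8 of its genes fell in YJ-06, with a median of -0.60, and all 8 rose in YJ-09, with a median of 2.04. QCR2 (YPR191W), a core subunit, fell most in the bikaverin pair, with 389.6, 349.5 and 371 FPKM in YJ-06, against 709, 742 and 737 FPKM in YJ-04 (-0.98 ± 0.082, adjusted p = 6.5e-05). It had 875, 1068 and 1049 FPKM in YJ-09, against 336, 330.3 and 305 FPKM in YJ-08 (1.62 ± 0.093, adjusted p = 3.4e-07). The groups were apart in both pairs. QCR9 (YGR183C), a small subunit, rose most in the pRS416 pair, with 4500.4, 4872 and 4243 FPKM in YJ-09, against 991, 972 and 1003 FPKM in YJ-08 (2.20 ± 0.089, adjusted p = 3.7e-08). It had 678, 650.0 and 686 FPKM in YJ-06, against 968, 1082 and 1231 FPKM in YJ-04 (-0.70 ± 0.11, adjusted p = 0.0011). Each library of YJ-09 was more than 4 times the highest of YJ-08.

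The catalytic subunits of complex III changed least in one pair or the other. RIP1 (YEL024W), the Rieske iron-sulfur protein, had 527, 461 and 488 FPKM in YJ-06, against 619.9, 614 and 738 FPKM in YJ-04. It had 1096, 1488 and 1178 FPKM in YJ-09, against 457, 431 and 448 FPKM in YJ-08. Its log2 fold changes were -0.41 ± 0.11 (adjusted p = 0.012) in the bikaverin pair and 1.48 ± 0.11 (adjusted p = 2.1e-06) in the pRS416 pair, the smallest rise of the complex. CYT1 (YOR065W), the c-type cytochrome of the complex, had 638, 579 and 612 FPKM in YJ-06, against 761, 723 and 846 FPKM in YJ-04. It had 948, 1238 and 1127 FPKM in YJ-09, against 303, 299 and 312 FPKM in YJ-08. It changed by -0.35 ± 0.095 (adjusted p = 0.015) and 1.85 ± 0.1 (adjusted p = 2.2e-07). Without replicate 2 of YJ-06, neither RIP1 (adjusted p = 0.053) nor CYT1 (adjusted p = 0.070) was called in the bikaverin pair.

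The other subunits of complex III were alike. QCR8, the highest of the 37 by FPKM in both pRS416 strains, averaged 991 ± 68.8 FPKM in YJ-06 and 1511 ± 193 FPKM in YJ-04, and 5195 ± 893 FPKM in YJ-09 and 1163 ± 39.4 FPKM in YJ-08. COR1, QCR6 and QCR7 changed by -0.53, -0.61 and -0.71 in the bikaverin pair and by 2.02, 2.10 and 2.05 in the pRS416 pair.

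Cytochrome c, the soluble carrier between complexes III and IV, is encoded by CYC1, the main gene in aerobic cells, and CYC7, known for its rise when oxygen is low. Both rose in both pairs. CYC1 (YJR048W) had 600.4, 376 and 377 FPKM in YJ-06, against 189, 202 and 144 FPKM in YJ-04. It had 948, 1121 and 1108 FPKM in YJ-09, against 29.4, 29.4 and 27.3 FPKM in YJ-08. The groups did not overlap, and CYC1 was 2.53-fold higher in YJ-06 (1.31 ± 0.21, adjusted p = 0.0012) and 36.9-fold higher in YJ-09 (5.15 ± 0.08, adjusted p = 1.6e-10). Replicate 1 of YJ-06 was well above its replicates, and without it the log2 fold change was 1.09 (adjusted p = 0.00067). CYC7 (YEL039C) had 70.5, 97.9 and 95.5 FPKM in YJ-06, against 43.0, 34.7 and 35.6 FPKM in YJ-04. It had 1877, 2525 and 2019.9 FPKM in YJ-09, against 91.0, 88.5 and 87.0 FPKM in YJ-08. CYC7 was 2.33-fold higher in YJ-06 (1.19 ± 0.15, adjusted p = 0.00039) and 24.1-fold higher in YJ-09 (4.56 ± 0.11, adjusted p = 1.4e-09). Here replicate 1 was the lowest of YJ-06, and without it the log2 fold change was 1.34 (adjusted p = 7.6e-05). For both genes the rise was smaller in the bikaverin pair than in the pRS416 pair, with differences of -3.84 (adjusted p = 6.1e-08) and -3.37 (adjusted p = 3e-08).

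The isoform ratio lay further apart between the kinds of strain than within a pair. Kind of strain and table cannot be told apart here, and no ratio was tested. CYC1 over CYC7 was 8.52, 3.84 and 3.95 in YJ-06, against 4.38, 5.83 and 4.04 in YJ-04, and these overlapped. The overlap came from replicate 1 of YJ-06 (8.52), and without it YJ-06 lay wholly below YJ-04. The ratio was 0.505, 0.444 and 0.549 in YJ-09, against 0.323, 0.332 and 0.314 in YJ-08, with no overlap, so that CYC7 RNA was the more abundant in both pRS416 strains and CYC1 RNA in both bikaverin strains. The coding sequences, of 330 and 342 bases, are alike at 77.0% of aligned bases, below the 90% at which copies were taken as uncertain. CYC1 lies on chromosome X and its window (chrX:525935-526234, plus strand) held no exact match to the motifs. CYC7 lies on chromosome V and its window (chrV:80078-80377, minus strand) held none either. The folds of these genes in the pRS416 pair were the largest of the 37.
CYC1: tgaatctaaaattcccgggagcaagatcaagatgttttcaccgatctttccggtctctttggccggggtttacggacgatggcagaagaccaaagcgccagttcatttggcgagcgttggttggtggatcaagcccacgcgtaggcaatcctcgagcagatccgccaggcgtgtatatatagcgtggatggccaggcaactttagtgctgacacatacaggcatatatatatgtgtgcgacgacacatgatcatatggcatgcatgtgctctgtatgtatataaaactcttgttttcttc
CYC7: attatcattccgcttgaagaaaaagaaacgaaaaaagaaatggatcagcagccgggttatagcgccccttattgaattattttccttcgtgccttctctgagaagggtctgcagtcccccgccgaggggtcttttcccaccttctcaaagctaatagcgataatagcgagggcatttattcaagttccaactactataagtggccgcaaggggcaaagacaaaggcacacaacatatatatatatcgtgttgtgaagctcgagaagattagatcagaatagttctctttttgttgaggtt

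**Figure D3:**
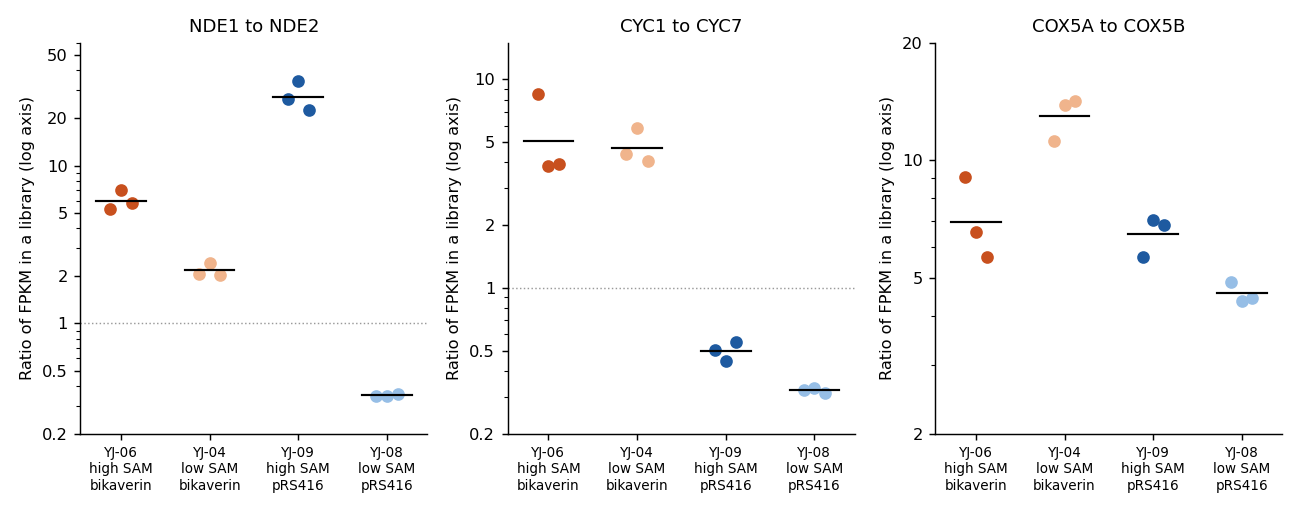
Ratio of FPKM within each library (log axis) for NDE1 to NDE2, CYC1 to CYC7 and COX5A to COX5B, with the mean of the log2 ratios as a line and the groups in the order YJ-06, YJ-04, YJ-09, YJ-08. NDE1 to NDE2 was above 1 in all strains but YJ-08, and CYC1 to CYC7 was above 1 in the bikaverin strains only.

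Complex IV reduces oxygen to water, and 9 nuclear genes of its subunits were followed. In the bikaverin pair 8 fell and COX5B rose (median -0.73), and in the pRS416 pair all 9 rose (median 1.46). COX5A and COX5B encode alternative forms of the same subunit, COX5A for aerobic cells and COX5B for low oxygen. COX5A (YNL052W) had 850.1, 743 and 752 FPKM in YJ-06, against 879, 937 and 1099.7 FPKM in YJ-04. It had 2488, 3248 and 3029.6 FPKM in YJ-09, against 445, 408 and 423 FPKM in YJ-08. It had the smallest called fall of the complex in YJ-06 (-0.31 ± 0.11, adjusted p = 0.048) and the largest rise in YJ-09, 6.87-fold (2.77 ± 0.11, adjusted p = 2.8e-08). The call in the bikaverin pair was fragile: it was lost under quantile normalization (adjusted p = 0.187), with no filter on low values (0.051), and without replicates 2 or 3 of YJ-04 (0.093 and 0.118) or of YJ-06 (0.150 and 0.110). COX5B (YIL111W) had 93.6, 113 and 133 FPKM in YJ-06, against 78.3, 67.7 and 77.4 FPKM in YJ-04. It had 439, 462 and 444 FPKM in YJ-09, against 90.9, 93.4 and 95.0 FPKM in YJ-08. Its groups did not overlap, and it was 1.52-fold higher in YJ-06 (0.59 ± 0.13, adjusted p = 0.0072) and 4.82-fold higher in YJ-09 (2.26 ± 0.06, adjusted p = 3e-09).

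The ratio of COX5A to COX5B moved in opposite directions. It was 9.08, 6.55 and 5.66 in YJ-06, against 11.2, 13.8 and 14.2 in YJ-04, and 5.67, 7.03 and 6.82 in YJ-09, against 4.90, 4.37 and 4.45 in YJ-08. COX5A stayed the more abundant RNA in all 12 libraries, and neither pair of groups overlapped. The coding sequences are alike at 67.5% of aligned bases. The window of COX5A (chrXIV:531325-531624, plus strand) holds CCAAT 170 and 145 bases before the start codon. That of COX5B (chrIX:154822-155121, plus strand) holds CCAAT 247 bases and ATTGTT 375 and 224 bases before it.
COX5A: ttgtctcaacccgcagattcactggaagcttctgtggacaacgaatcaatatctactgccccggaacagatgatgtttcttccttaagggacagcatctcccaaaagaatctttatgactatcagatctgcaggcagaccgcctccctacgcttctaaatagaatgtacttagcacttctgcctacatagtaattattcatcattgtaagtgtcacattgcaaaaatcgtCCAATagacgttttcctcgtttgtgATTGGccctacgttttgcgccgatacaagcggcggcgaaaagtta
COX5B: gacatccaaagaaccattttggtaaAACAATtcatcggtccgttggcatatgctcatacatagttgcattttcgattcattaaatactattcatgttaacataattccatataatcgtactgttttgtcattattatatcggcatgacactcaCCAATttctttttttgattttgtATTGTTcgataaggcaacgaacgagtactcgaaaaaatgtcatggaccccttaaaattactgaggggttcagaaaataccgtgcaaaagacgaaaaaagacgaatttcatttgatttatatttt

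COX7 (YMR256C), a small subunit, fell most in the bikaverin pair, with 379.7, 338 and 353 FPKM in YJ-06, against 819, 814 and 874 FPKM in YJ-04 (-1.23 ± 0.086, adjusted p = 2.8e-05). It had 2289.5, 2403 and 2178 FPKM in YJ-09, against 838, 744 and 849 FPKM in YJ-08 (1.50 ± 0.088, adjusted p = 3.9e-07). COX8 (YLR395C), another small subunit, had 813, 654 and 651 FPKM in YJ-06, against 1023, 954 and 1149.7 FPKM in YJ-04. It had 1667, 1976 and 2076 FPKM in YJ-09, against 788, 807 and 805 FPKM in YJ-08. Its changes were -0.57 ± 0.12 (adjusted p = 0.0057) and 1.25 ± 0.097 (adjusted p = 2.5e-06), and the rise in YJ-09 was the smallest of complex IV. COX4, COX6, COX9, COX12 and COX13 changed by -1.02, -0.91, -0.73, -0.73 and -0.60 in the bikaverin pair and by 1.42, 1.32, 1.46, 1.31 and 1.63 in the pRS416 pair. All of these passed the test.

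ATP synthase makes ATP from ADP with the proton gradient. Of its 11 genes, 8 fell in YJ-06 and 3 were not called (median of all 11, -0.84), and all 11 rose in YJ-09 (median 1.50). ATP1 and ATP2, the alpha and beta subunits that form the catalytic head, were among those not called in the bikaverin pair. ATP1 (YBL099W) had 796, 741 and 706 FPKM in YJ-06, against 825, 872 and 928 FPKM in YJ-04. It had 931, 991 and 1093 FPKM in YJ-09, against 300.1, 295 and 311 FPKM in YJ-08. The log2 fold change was -0.23 ± 0.092 in the bikaverin pair (adjusted p = 0.069), where the groups did not overlap, and 1.73 ± 0.079 in the pRS416 pair (adjusted p = 8.2e-08). ATP2 (YJR121W) had 1339, 1177 and 1138 FPKM in YJ-06, against 1319, 1382 and 1529 FPKM in YJ-04. It had 2437, 2879.6 and 2715 FPKM in YJ-09, against 449, 471 and 479 FPKM in YJ-08. The groups overlapped in the bikaverin pair (-0.21 ± 0.11, adjusted p = 0.12), which of the 37 genes only ATP2 did, and in the pRS416 pair ATP2 rose most of the complex (2.52 ± 0.087, adjusted p = 1.4e-08). The overlap came from replicate 1 of YJ-06 (1339 FPKM), and without it YJ-06 lay wholly below YJ-04.

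The ratio of ATP1 to ATP2, whose proteins stand in equal number in the enzyme, was 0.595, 0.629 and 0.62 in YJ-06, against 0.625, 0.631 and 0.607 in YJ-04. It was 0.382, 0.344 and 0.403 in YJ-09, against 0.668, 0.625 and 0.649 in YJ-08. The bikaverin strains overlapped in this ratio, and YJ-09 lay below the other strains.

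ATP20 (YPR020W), a membrane subunit of the enzyme's dimer, had 278, 246 and 242 FPKM in YJ-06, against 305, 285 and 282 FPKM in YJ-04. It had 648, 638 and 640.2 FPKM in YJ-09, against 156, 162 and 151 FPKM in YJ-08. It was not called in the bikaverin pair (-0.19 ± 0.088, adjusted p = 0.1) and rose in the pRS416 pair (2.03 ± 0.063, adjusted p = 7.4e-09). Without replicate 1 of YJ-06, ATP1, ATP2 and ATP20 were all called lower in the bikaverin pair, with adjusted p-values of 0.034, 0.042 and 0.027.

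ATP15 and ATP16, the epsilon and delta subunits of the central stalk, fell with the complex in the bikaverin pair. ATP15 (YPL271W) had 782, 783 and 816 FPKM in YJ-06, against 1537, 1716 and 1773 FPKM in YJ-04. It had 1413, 1686 and 1625 FPKM in YJ-09, against 837, 609 and 659 FPKM in YJ-08. Its fall was the largest of the complex (-1.08 ± 0.093, adjusted p = 7.6e-05), and it rose in YJ-09 (1.17 ± 0.13, adjusted p = 2.4e-05). ATP16 (YDL004W) had 462, 434 and 452 FPKM in YJ-06, against 892, 879 and 1017 FPKM in YJ-04. It had 1082, 1200.0 and 1059 FPKM in YJ-09, against 625, 573 and 532 FPKM in YJ-08. It changed by -1.04 ± 0.092 (adjusted p = 8e-05) and 0.95 ± 0.089 (adjusted p = 8.8e-06), the smallest rise of ATP synthase in the pRS416 pair. ATP3, ATP4, ATP5, ATP7, ATP14 and ATP17 changed by -0.88, -0.49, -0.88, -0.84, -0.65 and -0.86 in the bikaverin pair and by 1.56, 1.50, 1.23, 1.16, 1.58 and 1.32 in the pRS416 pair, all past the test.

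Levels are given per kilobase of annotated length, which is 285 bases for QCR8 and 189 bases for ATP15. Whether levels of genes so short can be set against those of longer genes was not tested, so ranks between genes are a description only. The median of the 37 genes was 484 FPKM in YJ-06 and 836 FPKM in YJ-04, and 1254 FPKM in YJ-09 and 445 FPKM in YJ-08. ATP2 (1218 FPKM) was the highest in YJ-06, ATP15 (1676 FPKM) in YJ-04, and QCR8 in YJ-09 (5195 FPKM) and YJ-08 (1163 FPKM). The lowest means were those of NDE2 in YJ-06 (68.3 FPKM), CYC7 in YJ-04 (37.8 FPKM), NDE2 in YJ-09 (84.3 FPKM) and CYC1 in YJ-08 (28.7 FPKM). The median coefficient of variation of the genes over 3 libraries was 7.31% in YJ-06 and 7.75% in YJ-04, and 9.11% in YJ-09 and 3.25% in YJ-08.

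**Figure D4:**
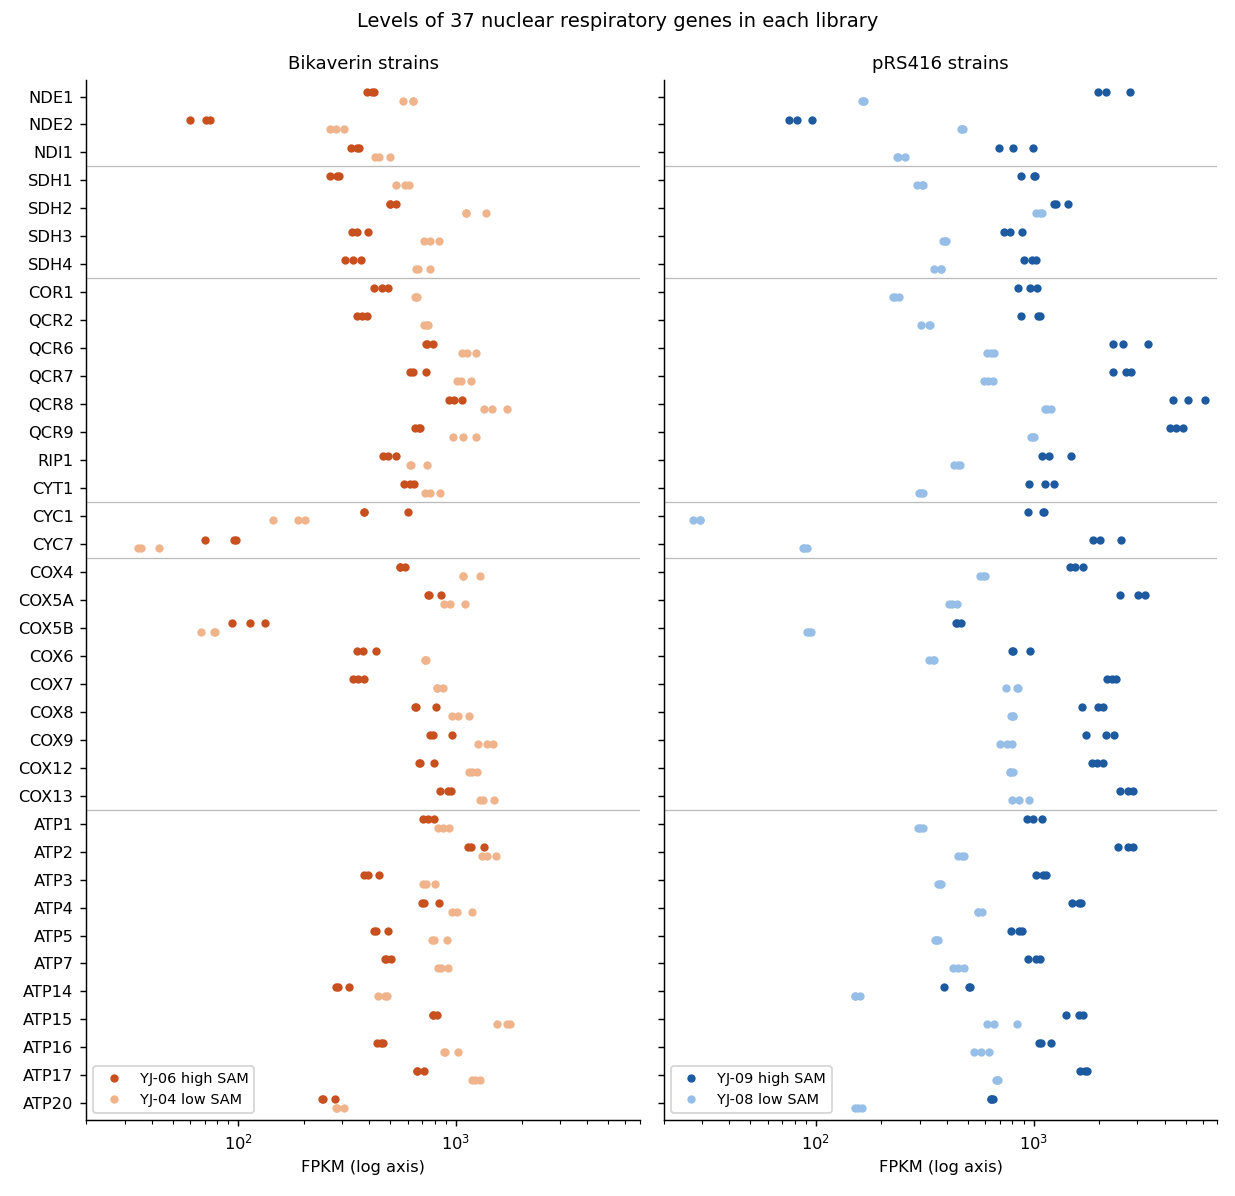
FPKM (log axis) of each of the 37 genes, 1 point per library, in the bikaverin strains (left panel) and the pRS416 strains (right panel), with grey lines between complexes. YJ-06 lies left of YJ-04 for 33 genes, and YJ-09 lies right of YJ-08 for 36.

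Other genes of the pathway were counted by the same test, and where a pair of adjusted p-values is given, that of the bikaverin pair comes first. The shares of all features called, given above for the 37 genes, hold for these counts too. Of 10 further subunits and associated factors, 2 rose and 8 fell in YJ-06, and 7 rose and 3 fell in YJ-09. QCR10, a subunit of complex III, averaged 592 ± 8.56 FPKM in YJ-06 and 1696 ± 352 FPKM in YJ-04, and 4474 ± 641 FPKM in YJ-09 and 1052 ± 2.32 FPKM in YJ-08 (adjusted p = 0.00012 and 2.1e-07), as most of the 37 genes did. COX26, a small protein bound to complex IV, fell in both pairs, with 316 ± 24.6 FPKM in YJ-06 and 1179 ± 25.5 FPKM in YJ-04, and 985 ± 48.9 FPKM in YJ-09 and 2242 ± 104 FPKM in YJ-08 (adjusted p = 3.9e-06 and 1.3e-06). RCF2, a factor of respiratory supercomplexes, rose in both, with 326 ± 29.4 FPKM in YJ-06 and 195 ± 6.54 FPKM in YJ-04, and 329 ± 29.8 FPKM in YJ-09 and 63.2 ± 4.17 FPKM in YJ-08 (adjusted p = 0.0004 and 1.6e-08).

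The paralogs of complex II subunits went down in both pairs, as all 3 fell in each. SHH4, a paralog of SDH4, averaged 38.1 ± 3.25 FPKM in YJ-06 and 302 ± 32.4 FPKM in YJ-04, and 51.5 ± 2.95 FPKM in YJ-09 and 781 ± 19.1 FPKM in YJ-08 (adjusted p = 1.1e-06 and 2.5e-10). SHH3, a paralog of SDH3, averaged 70.6 ± 14.8 FPKM in YJ-06 and 210.4 ± 11.0 FPKM in YJ-04, and 144 ± 11.7 FPKM in YJ-09 and 977 ± 5.65 FPKM in YJ-08. SDH9, a paralog of SDH1 whose sequence is alike at 78.0% over 1696 bases, averaged 37.2 ± 3.82 FPKM in YJ-06 and 90.1 ± 8.97 FPKM in YJ-04, and 49.1 ± 3.40 FPKM in YJ-09 and 227 ± 9.68 FPKM in YJ-08. The adjusted p-values were 0.00012 and 3.5e-09 for SHH3, and 7.6e-05 and 9e-09 for SDH9. SDH1, SDH3 and SDH4 rose in the pRS416 pair while their paralogs fell.

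Other donors and carriers moved in both directions. Of 3 further donors of electrons, 1 rose and 2 fell in YJ-06, and 1 rose, 1 fell and 1 was not called in YJ-09. DLD1, a D-lactate dehydrogenase that reduces cytochrome c, averaged 303 ± 43.0 FPKM in YJ-06 and 163 ± 7.35 FPKM in YJ-04, and 468 ± 57.6 FPKM in YJ-09 and 147 ± 11.6 FPKM in YJ-08 (adjusted p = 0.00045 and 5.6e-07). CYB2, the L-lactate dehydrogenase of the same step, averaged 127 ± 9.40 FPKM in YJ-06 and 279 ± 79.2 FPKM in YJ-04, and 188 ± 17.8 FPKM in YJ-09 and 385 ± 4.24 FPKM in YJ-08 (adjusted p = 0.0016 and 2.3e-06). DLD1 rose and CYB2 fell in both pairs. Of 5 carriers and porins tested, 1 rose and 4 fell in YJ-06, and 3 rose, 1 fell and 1 was not called in YJ-09. The ADP/ATP carriers parted in the pRS416 pair: PET9, the main one, rose to 2165 ± 249 FPKM in YJ-09, against 444 ± 12.3 FPKM in YJ-08 (adjusted p = 4.4e-08), and AAC1 fell to 77.2 ± 6.29 FPKM in YJ-09, against 379.5 ± 11.0 FPKM in YJ-08 (adjusted p = 8.8e-09).

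Assembly factors were called in both directions. Of 44 factors, 9 rose and 11 fell in YJ-06, where 28.8% and 27.9% of all features did so. In YJ-09, 19 rose and 13 fell, where 39.1% and 38.4% of all features did so. The median log2 fold changes of the factors were 0.02 and 0.13, and their difference from the subunits was not tested. By complex, the 4 factors of complex II all fell in YJ-06, while 1 rose and 2 fell in YJ-09. Of 8 factors of complex III and cytochrome c, 3 rose and 1 fell in YJ-06, and 4 rose and 1 fell in YJ-09. Of 22 factors of complex IV, 3 rose and 3 fell in YJ-06, and 11 rose and 6 fell in YJ-09. Of 10 factors of ATP synthase, 3 rose and 3 fell in YJ-06, and 3 rose and 4 fell in YJ-09. CBP4, needed for complex III assembly, fell in both pairs, with 75.9 ± 8.86 FPKM in YJ-06 and 199 ± 29.1 FPKM in YJ-04, and 152 ± 4.88 FPKM in YJ-09 and 394 ± 34.1 FPKM in YJ-08 (adjusted p = 0.00011 and 2.9e-07). CYC3, which attaches haem to cytochrome c, rose in both pairs, with 389.9 ± 27.2 FPKM in YJ-06 and 242 ± 0.711 FPKM in YJ-04, and 322 ± 43.9 FPKM in YJ-09 and 257 ± 12.8 FPKM in YJ-08 (adjusted p = 0.00034 and 0.016).

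Of 7 regulators, 1 rose, 4 fell and 2 were not called in YJ-06, and 4 rose and 3 fell in YJ-09. HAP4, the activating subunit of the Hap2/3/4/5 complex, moved as most of the respiratory genes did. It averaged 126 ± 6.83 FPKM in YJ-06 and 281 ± 21.1 FPKM in YJ-04 (-1.15 ± 0.089, adjusted p = 4.5e-05). In the pRS416 strains it averaged 1512 ± 307 FPKM in YJ-09 and 105 ± 9.10 FPKM in YJ-08 (3.82 ± 0.13, adjusted p = 1.6e-08). HAP3, a DNA-binding subunit, rose in both pairs, with 80.1 ± 6.39 FPKM in YJ-06 and 62.3 ± 2.68 FPKM in YJ-04, and 96.3 ± 22.7 FPKM in YJ-09 and 28.8 ± 2.13 FPKM in YJ-08 (adjusted p = 0.0097 and 5.8e-06). HAP2 fell in both, with 67.9 ± 7.88 FPKM in YJ-06 and 95.1 ± 11.99 FPKM in YJ-04, and 76.7 ± 7.95 FPKM in YJ-09 and 101 ± 4.67 FPKM in YJ-08 (adjusted p = 0.012 and 0.0018). HAP5 was not called in the bikaverin pair (adjusted p = 0.087) and rose in the pRS416 pair (adjusted p = 0.037).

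HAP1, the haem-responsive activator, fell in both pairs. It averaged 53.4 ± 2.90 FPKM in YJ-06 and 89.6 ± 2.52 FPKM in YJ-04, and 40.1 ± 5.79 FPKM in YJ-09 and 84.2 ± 1.47 FPKM in YJ-08 (adjusted p = 0.00018 and 6.7e-06). ROX1, a repressor of hypoxic genes, averaged 324 ± 19.1 FPKM in YJ-06 and 344 ± 16.3 FPKM in YJ-04, which was not called (adjusted p = 0.41). It rose in the pRS416 pair, with 657 ± 91.3 FPKM in YJ-09 and 152 ± 2.84 FPKM in YJ-08 (adjusted p = 8.2e-08). Of 7 hypoxic genes tested, 2 rose and 3 fell in YJ-06 (28.8% and 27.9% of all features did), and 2 rose and 3 fell in YJ-09 (39.1% and 38.4% of all features). A cyclophilin gene that had been placed on that list by mistake was taken off after its values were seen. HEM13, a haem synthesis enzyme known to rise at low oxygen, rose in both, with 72.7 ± 10.1 FPKM in YJ-06 and 38.2 ± 2.66 FPKM in YJ-04, and 101 ± 12.5 FPKM in YJ-09 and 16.8 ± 1.46 FPKM in YJ-08 (adjusted p = 0.00042 and 2.8e-08). DAN1, a cell wall protein of anaerobic cells, fell in both, with 3.54 ± 0.525 FPKM in YJ-06 and 8.23 ± 0.336 FPKM in YJ-04, and 2.73 ± 0.817 FPKM in YJ-09 and 9.85 ± 1.18 FPKM in YJ-08 (adjusted p = 0.0011 and 2.8e-05).

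**Figure D5:**
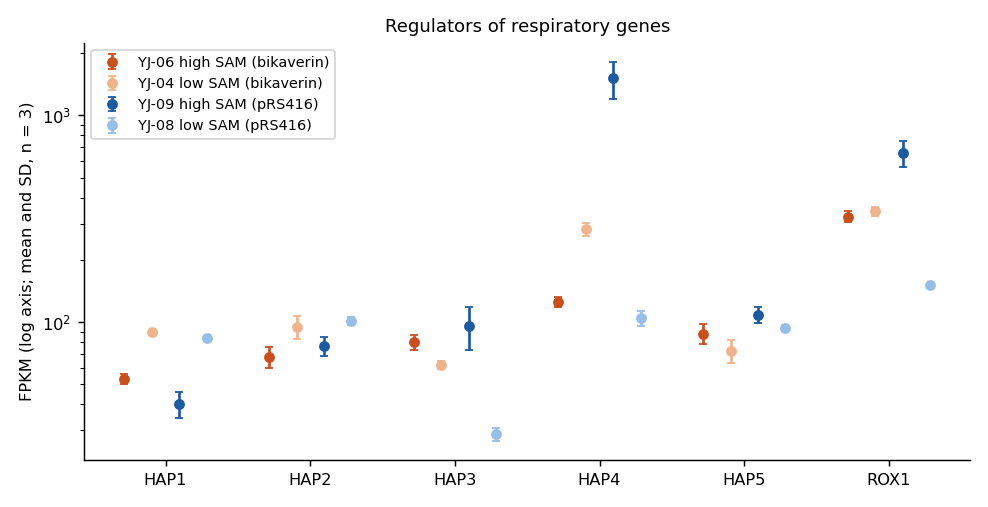
FPKM (log axis, mean and SD of 3 libraries) of HAP1 to HAP5 and ROX1 in YJ-06, YJ-04, YJ-09 and YJ-08. HAP4 differs most, with 1512 FPKM in YJ-09 and 105 FPKM in YJ-08.

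Subunits that are encoded in the mitochondrial genome were hardly measured. The sum of COX1, COX2, COX3, COB, ATP6 and OLI1 was 0.469 to 1.47 FPKM in the libraries of YJ-06 and 2.57 to 3.31 FPKM in YJ-04, and 4.94 to 10.5 FPKM in YJ-09 and 1.90 to 3.03 FPKM in YJ-08. Only OLI1 in the pRS416 pair passed the filter. Nothing can be said here of the balance of nuclear and mitochondrial subunits.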

How the data were processed

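The deposited values are FPKM, made by the authors in 2 tables, 1 per pair of strains. Per the submitters' processing notes, fastp, HISAT2 2.0.5, featureCounts 1.5.0-p3 and build R64 were used. Not given in the sources used here are the strand setting and any filter. Headers and titles share a library name, by which each column was given its sample, 0 columns were left unused, and 705 identifiers were restyled to match the R64 reference (5944 and 5934 matched). Depth was recovered from steps of 1 read: for values below 1000 reads, 97.4% to 98.8% were within 0.02 of a whole number, and 3 reads in a 1 kb gene equal 0.170 to 0.195 FPKM (bikaverin) and 0.0665 to 0.0737 FPKM (pRS416). No libraries agreed within sampling noise.

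Each pair was tested in its own table with limma 3.58.1 (R 4.3.3, intensity trend) on log2(FPKM + 1), keeping features that averaged 1 FPKM or more. Adjusted p-values are Benjamini-Hochberg over all features tested. This scale understates changes of low genes. The difference between the pairs was tested in 1 fit of the features in both tables. The fits were also run on simulated data with far fewer changed genes than were called here, so that run says little of their error in these data. Sums, ratios and windows have no test. Windows come from the R64 genome of RefSeq and copies from BLAST+ 2.17.0. No member had a copy at 90% identity over 50% of its length, and none overlaps another annotated gene.

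Values of every library are given for the isoform pairs, for the gene of largest and of smallest change of each complex in each pair, and for genes that go against their complex or are not called. Of other lists, at most 4 genes of smallest p in a pair are named, and HAP1 to HAP5 and ROX1. The members and lists were chosen with earlier results of these data known. Alternatives were another pseudocount (0.1), no filter, quantile and median-ratio scaling, a replicate block, 1 fit of all libraries, and leaving out each library.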

Additional observations from a re-analysis of the deposited data

Results flagged for a closer look

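For all 37 genes the change differed between the bikaverin and the pRS416 pair by the test of the difference itself (limma, adjusted p below 0.05), which is what placed them here. Values are the log2 fold change of the bikaverin pair (YJ-06 minus YJ-04) minus that of the pRS416 pair (YJ-09 minus YJ-08). Of all features tested, 57.3% passed the same test.

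Among the NADH dehydrogenases the difference was -4.38 for NDE1, 0.43 for NDE2 and -2.15 for NDI1. In complex II it was -2.70 for SDH1, -1.54 for SDH2, -2.13 for SDH3 and -2.44 for SDH4. In complex III it was -2.55 for COR1, -2.59 for QCR2, -2.70 for QCR6, -2.77 for QCR7, -2.75 for QCR8, -2.89 for QCR9, -1.89 for RIP1 and -2.20 for CYT1. For cytochrome c it was -3.84 for CYC1 and -3.37 for CYC7. In complex IV it was -2.44 for COX4, -3.08 for COX5A, -1.67 for COX5B, -2.23 for COX6, -2.72 for COX7, -1.81 for COX8, -2.18 for COX9, -2.05 for COX12 and -2.23 for COX13. In ATP synthase it was -1.96 for ATP1, -2.73 for ATP2, -2.44 for ATP3, -1.99 for ATP4, -2.12 for ATP5, -1.998 for ATP7, -2.24 for ATP14, -2.25 for ATP15, -1.99 for ATP16, -2.19 for ATP17 and -2.22 for ATP20. NDE1 had the largest difference of the 37 genes and NDE2 the smallest, the only one above 0.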

How the results depend on the processing

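Of 1517 values of single genes under other settings, 1500 kept their direction and their side of the threshold, 12 lost their call, 5 gained one, and none changed sign. The genes concerned are COX5A, RIP1, CYT1, ATP1, ATP2 and ATP20 in the bikaverin pair, SDH2 in the pRS416 pair and NDE2 in the difference. In 1 fit of all 12 libraries, ATP1 (adjusted p = 0.032) and ATP20 (0.038) were called lower in the bikaverin pair. Quantile normalization moved the median log2 fold change of the 37 genes to -0.62 in the bikaverin pair, 1.40 in the pRS416 pair and -1.98 in the difference; the cause was not tested. Over all settings, 28 to 34 genes were called lower and 3 higher in the bikaverin pair, and 35 to 36 higher and 1 lower in the pRS416 pair. Leaving out 1 library gave 0 to 1 genes called above 0 in the difference (NDE2) and 36 called below. Other scalings moved the median of all features by less than 0.1.

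Replicate numbers did not pair the samples: same-numbered libraries correlated in their deviations from the group means at -0.14 to 0.12. With the replicate block, 3 genes were called higher and 30 lower in the bikaverin pair, and COX5A lost its call (adjusted p = 0.088). Each value of these genes rests on at least 199 reads, and the 3 libraries per strain, of unstated origin, limit the tests.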
